A study of Arabidopsis thaliana with 6 samples.

Results

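The change between 30 min and 60 min of renewed light in the flu mutant of Arabidopsis thaliana was described by setting 1 ATH1 array of flu leaves after 60 min of light against 1 array of flu leaves after 30 min, 2 of the 6 arrays of the series. Probe sets other than controls were used if their brightest array reached a signal limit set at the median of the series (184.8, rounded up to a whole number), which kept 13062 of 22746. The arrays were of the flu mutant (allele flu1-1, in the ecotype Landsberg erecta) after 30 min, after 60 min and after 2 h of light, and of the wild type Landsberg erecta (Ler) at the same times. All plants were 3 weeks old, had grown on soil in continuous light, had not bolted and were kept dark for 8 h before the light returned. Each array held rosette leaf RNA of 2 biological experiments, pooled before labelling, with 5 to 6 plants per sample. There was no array of plants still in the dark, and each genotype and time had 1 array. No difference between 2 arrays therefore has a replicate check, an SD or a p-value. The number of arrays sets the precision of all that follows. FLU itself is not reported here because its name was attached to none of the annotated probe sets.

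FLU is a plastid protein that restrains the first steps of tetrapyrrole synthesis, the pathway to chlorophyll and haem. Without it, leaves accumulate protochlorophyllide in darkness, and in light this pigment passes its energy to oxygen and forms singlet oxygen inside the plastid. Singlet oxygen is known to set off a rapid change of nuclear transcripts in such plants, and damaged proteins are bound by molecular chaperones, of which the small heat shock proteins, Hsp70 and Hsp90 with their co-chaperones are the main cytosolic classes.

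Differences are given as log2(signal + 50), 60 min minus 30 min, and "2-fold" means a difference of at least 1 on that scale. The offset of 50 shrinks the differences of dim probe sets. Signals are those of single probe sets, and levels of different genes are not compared. In bulk leaf tissue, more RNA per cell and more cells of a type cannot be told apart. Just inside the signal limit lay probe sets with highest signals of 185.03, 185.05 and 185.12 and differences of -0.55, 0.18 and -0.23, and just outside it probe sets with 184.81, 184.95 and 184.97 and differences of 0.43, 0.46 and 0.34.

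The flu array of 30 min, 1 of the pair compared, stood apart in its hybridisation controls, which are RNAs added to the sample before hybridisation. Their geometric mean was 1200 on the flu array of 60 min, against 743 on that of 30 min, with 1077 at 2 h and 1213 to 1468 on the 3 Ler arrays. All 18 such control probe sets were higher at 60 min, by a median of 0.61 and a range of 0.32 to 0.95. The ratio of actin 3′ to 5′ signal, a measure of RNA integrity, was 1.31 at 60 min against 2.08 at 30 min in flu, and 1.43 to 2.03 in Ler. The same ratio for GAPDH was 0.88 against 0.83 in flu, and 0.86 to 1.00 in Ler. For ubiquitin it was 1.20 against 1.30 in flu, and 1.35 to 1.51 in Ler. Each array had been scaled to the same mean, so the overall brightness of this array as scanned is not known. The flu array of 30 min was the lowest of the 6 in 11.7% of the probe sets and the highest in 16.6%. The part of this array in the results below was not tested, and no result can be given without it. The leaf genes LHCB4.1 (13697 to 23289) and RCA (14994 to 20955) were strongly expressed on all arrays. Markers of other cells and organs were the stomatal factor FMA (228 to 363), the trichome regulators TRY (170 to 393) and GIS (127 to 695) and the root gene PYK10 (141 to 481). Their differences in flu were 0.30 for FMA, 0.19 for TRY, -0.15 for GIS and 0.42 for PYK10, and their part in the results was not tested.

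Among probe sets changed at least 2-fold from 30 min to 60 min of light, far more were higher than lower in the mutant. Without a fold limit the balance was the other way, with 59.3% of all named genes negative in flu. In flu 359 probe sets (2.75%) were at least 2-fold higher and 75 (0.574%) at least 2-fold lower at 60 min, against 95 (0.727%) higher and 64 (0.49%) lower in Ler. Higher probe sets made up 82.7% of these in flu and 59.7% in Ler, or 84.4% and 76.2% after quantile normalization of the arrays. Large increases were also more frequent in flu. At 4-fold, 49 probe sets were higher in flu and 6 in Ler, and at 8-fold, 9 were higher in flu and 0 in Ler. In the other direction 1 probe set in flu and 2 in Ler were at least 4-fold lower. The median difference was -0.07 in flu and -0.03 in Ler, and the range from the 5th to the 95th percentile was -0.60 to 0.75 in flu and -0.55 to 0.54 in Ler. The excess was present in each of 4 equal groups of the probe sets by mean signal, with 2.42%, 1.65%, 3.25% and 3.67% higher in flu from the dimmest to the brightest group.

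**Figure D1:**
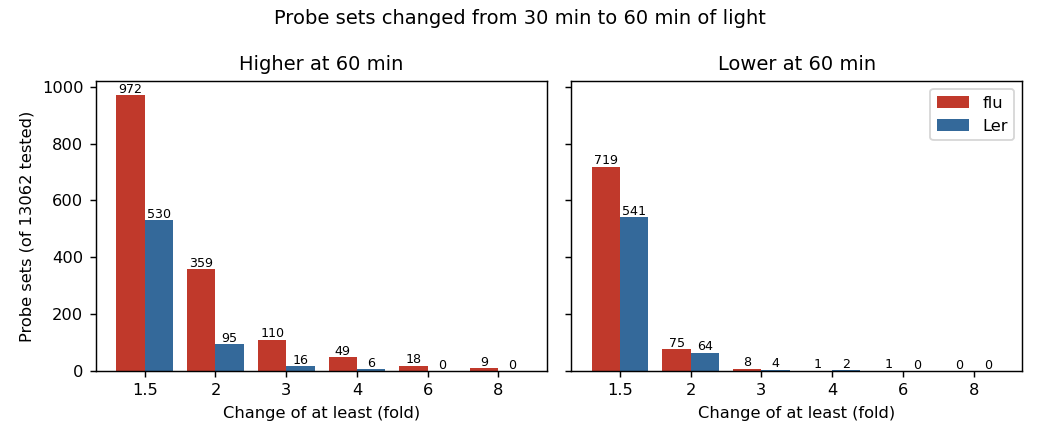
Number of probe sets (vertical axis) that were at least 1.5 to 8-fold (horizontal axis) higher (left) or lower (right) at 60 min than at 30 min in flu (red) and Ler (blue), 1 array per genotype and time. The genotypes differ most on the left, with 110 probe sets at least 3-fold higher in flu and 16 in Ler, while on the right these counts are 8 and 4.

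Few of the increases in flu were also 2-fold in the wild type, but a larger share than among all probe sets. The wild type went through the same shift from dark to light. In Ler 219 of the 359 (61.0%) had a positive difference, where 45.2% of all named genes did. Of the 359 probe sets, 25 were also at least 2-fold higher in Ler, which is 6.96% of the flu set, where 0.727% of all probe sets were, and 26.3% of the Ler set of 95. A further 5 were at least 2-fold lower in Ler, and 275 of the 359 (76.6%) changed less than 1.5-fold there, against 91.8% of all probe sets. Across the 13062 probe sets the 2 differences had a Pearson r of 0.11, as a description over genes that share their arrays. Median signals of the 359 in flu were 320, 1084 and 1639 in order of time, against 198, 231 and 198 in Ler. At 60 min, 336 of them (93.6%) lay above all 3 Ler arrays, and at 30 min 177 (49.3%) already did, counts that use the compared flu arrays and are a description. A further 102 (28.4%) lay within the range of the Ler arrays at 30 min and 80 (22.3%) below it. The differences used no array of 2 h, although those arrays counted in the signal limit. At 2 h 323 of the 359 (90.0%) were at least 2-fold higher in flu than in Ler, where 10.1% of all probe sets were. None of the 359 was 2-fold lower in flu at 2 h. With the signal limit applied to the arrays of 30 min and 60 min alone, 298 of 333 (89.5%) were higher in flu at 2 h, against 9% of those probe sets.

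**Figure D2:**
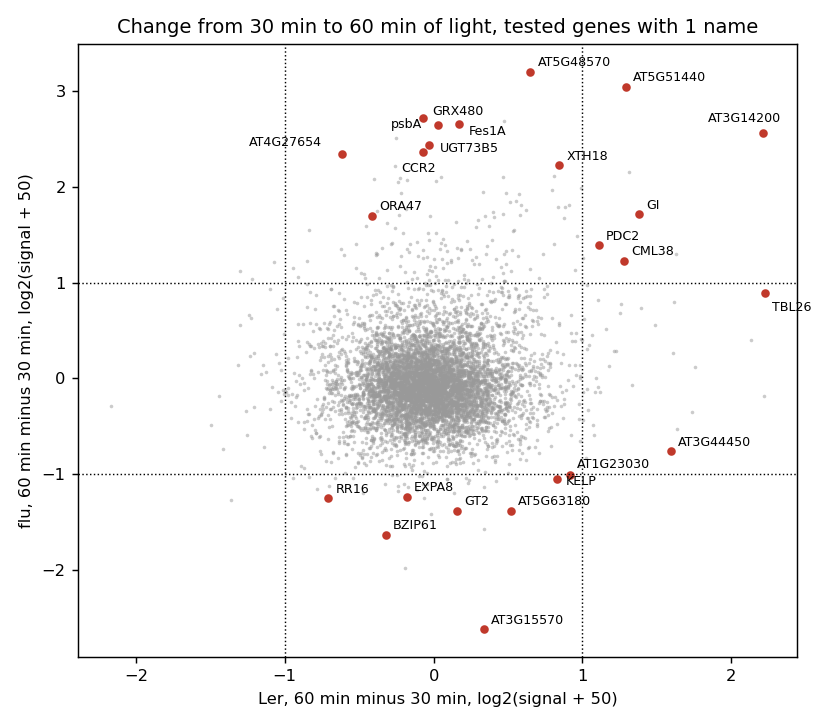
Difference between 60 min and 30 min of light in flu (vertical axis) and in Ler (horizontal axis) for 6868 genes with 1 name, on the log2(signal + 50) scale. Each point is a gene, dotted lines mark 2-fold, and named genes are red. AT5G48570, GRX480, psbA and Fes1A lie at 2.65 to 3.20 in flu and between -0.07 and 0.65 in Ler, whereas AT3G14200 and GI are high in both genotypes.

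Small heat shock protein genes had the highest median of the 39 gene lists with at least 3 tested genes. Among them, AT1G53540 and AT5G37670 passed the signal limit through their 2 h signals in flu alone. AT5G51440 and AT2G29500 passed it through flu signals at 60 min and 2 h alone. The median and the count of this list therefore cannot be read apart from that limit. Of 4 tested, a class that holds unfolding proteins in solution and was listed by locus number from general knowledge, 3 were at least 2-fold higher at 60 min, with a median difference of 1.88 in flu and 0.04 in Ler. Of 9 genes for Hsp70 and for co-chaperones of Hsp70 and Hsp90, 4 were, with medians of 0.95 in flu and 0.12 in Ler. Hop3 among them passed the signal limit through its 2 h signal alone, and without it the median in flu was 0.58. Over all 6868 genes with 1 name the median in flu was -0.07, with 159 (2.32%) at least 2-fold higher, 41 (0.597%) at least 2-fold lower and 2794 positive. Many of these genes were dim at 30 min, and 124 of the 359 higher probe sets had a flu signal under the limit then.

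The largest difference among brighter genes, 3.20, was that of AT5G48570 (ROF2 or FKBP65 in RefSeq), an immunophilin that works with Hsp90 in acclimation to heat. Its signal in flu was 843 at 60 min against 47.2 at 30 min, and 5577 at 2 h. In Ler it was 45.2, 99.5 and 247 in order of time. At 30 min both genotypes lay below the signal limit, where likeness cannot be judged, and at both later times flu was higher. Fes1A, a partner of Hsp70 that keeps it stable in heat, had 2472 at 60 min against 350 at 30 min in flu, a difference of 2.66, and 8805 at 2 h. Its Ler signals were 449, 513 and 608, and flu was thus below Ler at 30 min and above it afterwards. Hsp70-2, a cytosolic Hsp70, had 2341 at 60 min against 695 at 30 min in flu (1.68), and 845 against 625 in Ler (0.41).

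Members of the same co-chaperone families had unlike values. Hop proteins join Hsp70 to Hsp90. Hop3 had a signal of 182 at 60 min against 4.05 at 30 min in flu (2.10), where the earlier value is too dim for a reliable ratio, and 1016 at 2 h. Hop2 had 1198 against 596 (0.95), just short of 2-fold, and Hop1 had 334 against 337 (-0.01). Fes1B (-0.07) and Fes1C (-0.09) were also close to 0 in that interval, but Fes1B had 1208 in flu at 2 h against 335 in Ler. ATERDJ3B, a DnaJ protein of the endoplasmic reticulum, differed by 0.20.

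Among the small heat shock protein genes, AT5G51440 had 724 at 60 min against 43.9 at 30 min in flu (3.04) and 112 against 16.3 in Ler (1.29), with all Ler values below the signal limit. AT2G29500 had 328 against 16.4 in flu (2.51) and 25.1 against 39.3 in Ler (-0.25). AT1G53540 had 105 against 14.9 in flu (1.25), below the signal limit at both times, and reached 1916 at 2 h. AT5G37670 differed least, with 158 against 87.5 in flu (0.60).

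**Figure D3:**
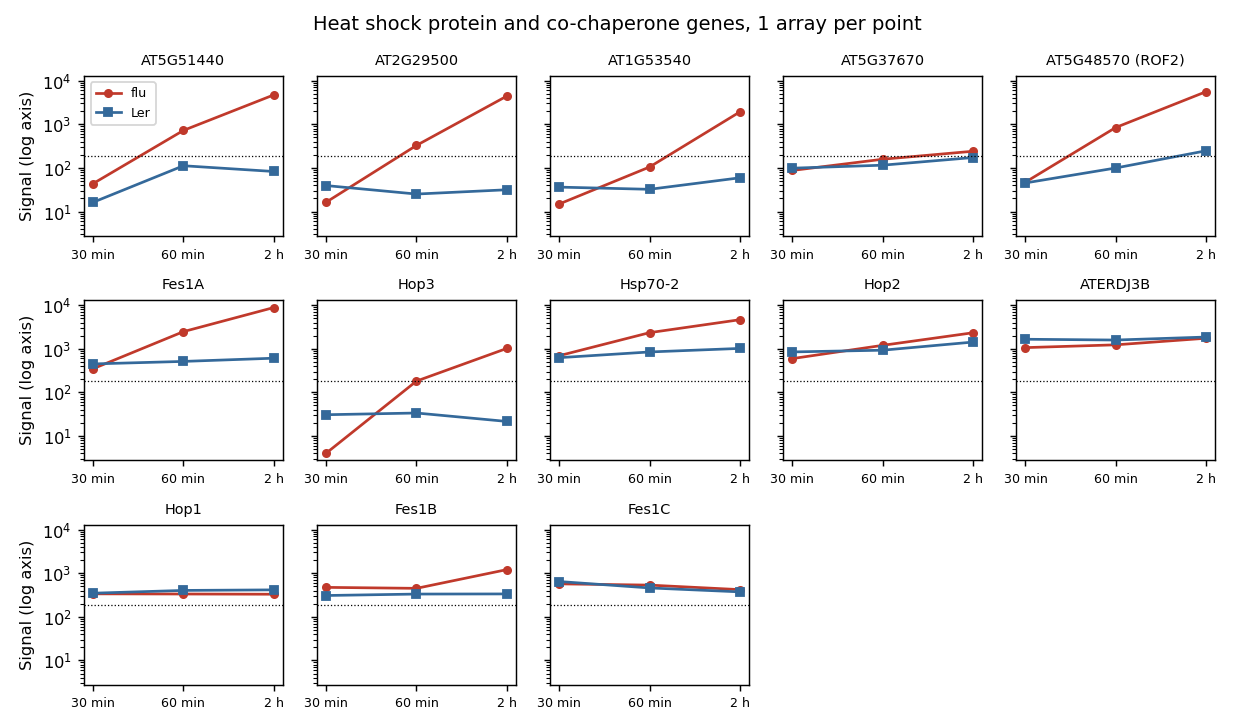
Signal (vertical axis, log scale) of 13 heat shock protein and co-chaperone genes by time of light (horizontal axis) in flu (red circles) and Ler (blue squares), 1 array per point, with the signal limit dotted. For AT5G48570, Fes1A, Hop3, Hsp70-2, AT5G51440, AT2G29500 and AT1G53540 flu lies above Ler at 60 min and 2 h by more than at 30 min, whereas the lines of Hop1 and Fes1C stay together.

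Genes known to respond to singlet oxygen in earlier flu work were far above Ler at 30 min already. That list was drawn from flu plants and is not independent evidence of its direction. Of its 7 tested genes, 4 were at least 2-fold higher at 60 min and none lower, where 2.32% of all named genes were higher, with a median of 1.01 in flu and 0.28 in Ler. AT5G64870 had 2096 at 60 min against 668 at 30 min in flu (1.58) and AT1G05575 had 4728 against 2325 (1.01), whereas their Ler signals lay between 32.6 and 117 at the 3 times. AT4G29780, with 8042 against 5832 (0.46), and AT1G35210, with 1618 against 1863 (-0.20), had lower signals of 3462 and 744 at 2 h.

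Signalling genes varied within each family. Of 7 calmodulin-like genes, which sense calcium, CML38 was 2-fold higher in flu, at 1186 against 478 (1.23), and its difference in Ler was as large, 1.28, from signals of 89.4 against 7.30. CML37 (0.93) and CML42 (0.79) fell short of 2-fold, and CML30 stood at -0.51. Among 6 WRKY transcription factors, which regulate defence genes, WRKY6 had 859 at 60 min against 230 at 30 min in flu (1.70) and 134 against 137 in Ler (-0.03). WRKY53 was already 2275 at 30 min in flu and 2535 at 60 min (0.15), and had 725 at 2 h. STZ (ZAT10), a zinc finger repressor, was as flat, with 8279 against 6741 (0.29).

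Genes of the jasmonate pathway, whose products are stress hormones made from plastid lipids, followed, with 2 of 3 tested at least 2-fold higher, against 2.32% of all named genes. ORA47, an AP2/ERF factor that activates jasmonate synthesis, had 1359 at 60 min against 385 at 30 min in flu (1.70) and 119 against 175 in Ler (-0.42). At 2 h its flu signal was 473, so the 60 min value was the highest of the 3. OPCL1, a ligase that activates jasmonate precursors, had 4087 against 1598 in flu (1.33) and 639 against 442 in Ler (0.48). JMT, which methylates jasmonate, had 75.6 against 34.1 in flu (0.58) and a like difference in Ler (0.54), and passed the signal limit through a 2 h signal alone.

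GRX480 (ROXY19), a glutaredoxin that binds TGA transcription factors in salicylate responses, had 2886 at 60 min against 397 at 30 min in flu, a difference of 2.72. In Ler its signals lay between 160 and 170 at all 3 times. BIK1, a cytoplasmic kinase that relays signals of immune receptors, had 2690 against 1105 in flu (1.25) and 502 against 480 in Ler (0.06). The receptor kinases FER (-0.21) and THE1 (-0.32), which monitor the cell wall, were not higher. Of the S-locus type receptor kinases, B120 had 636 against 128 in flu (1.95) and SD1-29 had 701 against 266 (1.25). SGT1A, a co-chaperone of Hsp90 needed for immune receptors, had 2608 against 1044 (1.28). SBT3.3, a subtilase linked to immune priming, had 97.8 against 15.7 (1.17), dim at both times.

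Of 9 U-box and RING ubiquitin ligases, PUB24, a brake on immune signalling, and PUB19, a regulator of drought responses, were 2-fold higher. The share of all named genes 2-fold higher in flu was 2.32%. PUB24 had 1633 at 60 min against 518 at 30 min in flu (1.57) and 266 against 327 in Ler (-0.26), and PUB19 had 962 against 329 in flu (1.42) and 328 against 410 in Ler (-0.28). PUB22 (0.13) and PUB23 (0.26), close relatives of PUB24, were short of 2-fold, and PUB23 already had 731 at 30 min in flu against 77.2 in Ler.

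UGT73B5, a glycosyltransferase of stressed tissue, had 442 at 60 min against 40.9 at 30 min in flu (2.44) and 52.2 against 54.4 in Ler (-0.03). It was the single 2-fold change in flu among 21 UDP-glycosyltransferases, where 2.91% of all named genes were 2-fold changed. The median of the 21 was 0.33 in flu and 0.25 in Ler, where UGT78D1 (1.04) was 2-fold higher. The 5 UGT73 genes were all positive, with a median of 0.49, where 40.7% of all named genes were positive. All 5 passed the signal limit through flu signals at 60 min or 2 h alone, so their common sign cannot be read apart from that limit. CCR2, a cinnamoyl-CoA reductase of lignin synthesis, had 237 against 5.70 in flu (2.36), the earlier signal being near background, and 8.57 against 11.5 in Ler. AT5G64120 (PRX71 in RefSeq), a secreted peroxidase, had 1957 against 538 in flu (1.77) and 244 against 284.5 in Ler (-0.19), whereas PRXR1 differed by -0.04. AER, an alkenal reductase that removes reactive carbonyls, had 2101 against 965 in flu (1.08) and the 8 aldehyde dehydrogenases had a median of -0.08.

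In mitochondria, NDB2, an NADH dehydrogenase of the alternative electron path, had 1840 at 60 min against 487 at 30 min in flu (1.81) and 861 against 557 in Ler (0.59), and it reached 6819 in flu at 2 h. NDB1, of the same enzyme family, differed by 0.11. Of 10 antioxidant enzymes none was 2-fold changed, where 2.91% of all named genes were, and the median was -0.13. The nearest was ATMDAR2, a monodehydroascorbate reductase that recycles ascorbate, with 1317 against 683 (0.90), whereas the thylakoid ascorbate peroxidase TAPX stood at -0.34 and the stromal SAPX at -0.01. TIL, a temperature-induced lipocalin, had 8091 against 3785 in flu (1.09) and 4100 against 4232 in Ler (-0.05).

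Of 8 tested genes of the tetrapyrrole pathway that FLU restrains, none was 2-fold changed, where 2.91% of all named genes were, and 7 were negative, as were 59.3% of all. The median was -0.16 in flu and 0.03 in Ler. HEMA2, for an isoform of glutamyl-tRNA reductase, the enzyme at the pathway's entry, was the exception at 0.95, with 572 at 60 min against 271 at 30 min in flu and 163 against 135 in Ler. PORB, which reduces protochlorophyllide in light, had 8135 against 10332 in flu (-0.34). Of nuclear genes for photosynthesis, LHCB4.3 of the antenna had 926 against 1703 in flu (-0.84), LHCB4.1 stayed at 0.03, and the 6 photosystem genes and 4 genes of the Calvin cycle and photorespiration had medians of -0.08 and -0.01.

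Most plastid-encoded genes had positive differences in flu, in the direction of the control signals of the 30 min flu array. Of 69, 53 were positive in flu and 43 in Ler, where 40.7% of all named genes were positive in flu and 45.2% in Ler. The median was 0.27 in flu against 0.05 in Ler, and differences in flu ranged from -0.65 for psbJ to 2.65 for psbA. At least 2-fold higher were 2 genes in flu (psbA and ycf3) and 2 in Ler (rpl14 and psbN). Of all named genes, 2.32% were in flu and 0.626% in Ler. psbA encodes the D1 protein of photosystem II, the subunit that light damages most. Its signal was 5098 at 60 min against 770 at 30 min in flu (2.65) and 4424 against 4343 in Ler (0.03). At 2 h it was 5061 in flu and 2903 in Ler, so the 30 min flu value was the lowest of the 6, and the median without psbA was 0.26. ycf3, an assembly factor of photosystem I, had 1821 against 869 in flu (1.03), psbB had 4217 against 2164 (0.95), and rbcL, the large subunit of Rubisco, had 1102 against 555 (0.93). The flu array of 30 min was the lowest of the 6 for 46 of the 69 genes, against 11.7% of all probe sets. Medians were 0.32 for 20 photosystem genes and 0.30 for 12 genes of the cytochrome b6f complex and ATP synthase, but 0.12 for 15 ribosomal proteins and 0.02 for 4 RNA polymerase subunits. The part of the control signals, which differed by a median of 0.61 in the same direction, was not tested.

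**Figure D4:**
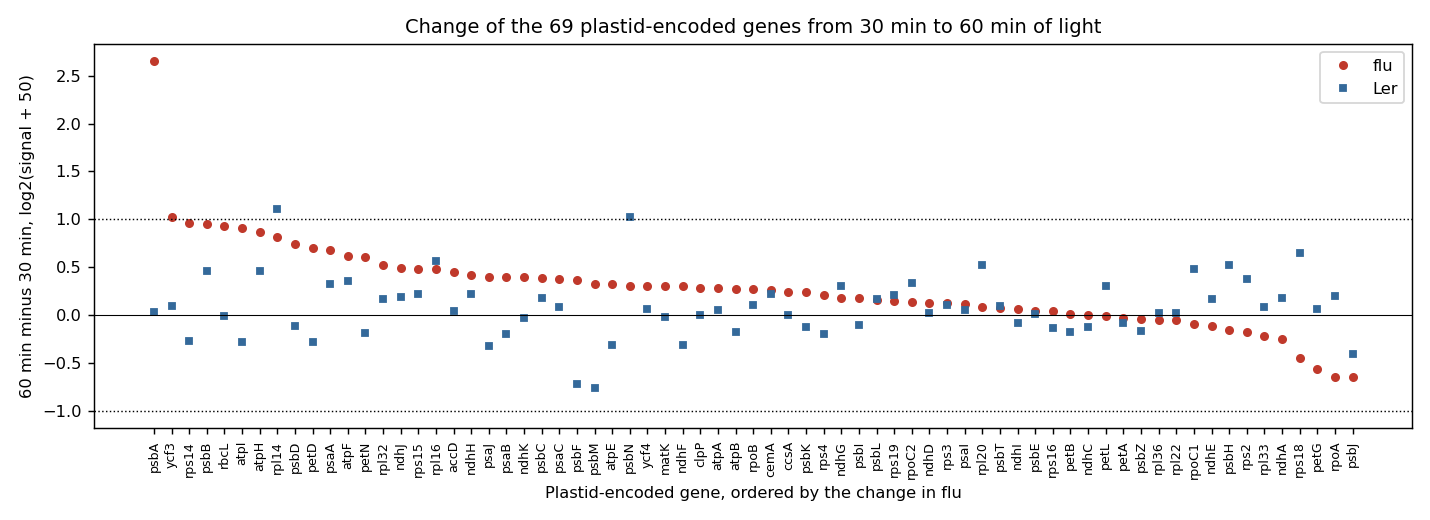
Difference between 60 min and 30 min of light for the 69 plastid-encoded genes (horizontal axis, ordered by flu), on the log2(signal + 50) scale (vertical axis), in flu (red circles) and Ler (blue squares), 1 array per genotype and time. psbA at 2.65 stands far from the next gene, ycf3 at 1.03, while its Ler point lies at 0.03.

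Among the 25 probe sets higher in both genotypes were those of GI, PDC2, AT3G14200 and AT3G25610. GI, a component of the circadian clock, had 606 at 60 min against 150 at 30 min in flu (1.71) and 813 against 282 in Ler (1.38). PDC2, a pyruvate decarboxylase of fermentation, had 2169 against 797 in flu (1.39) and 1817 against 816 in Ler (1.11). AT3G14200 had 1612 against 231 in flu (2.56) and 683 against 108 in Ler (2.21). AT3G25610 had 1789 against 364 in flu (2.15) and 290 against 86.6 in Ler (1.31). HYH, a bZIP factor of light signalling, was short of 2-fold in both genotypes at 0.75 in flu and 0.64 in Ler.

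Genes for the cell wall leaned lower. Of 37 tested, 10 were positive, against 2794 of all 6868 genes, with a median of -0.26 in flu and -0.05 in Ler. In flu 1 was 2-fold lower and 1 higher, where 0.597% and 2.32% of all named genes were. EXPA8, an expansin that loosens growing walls, had 848 at 60 min against 2060 at 30 min in flu (-1.23), 293 at 2 h, and 1954, 1717 and 1842 in Ler in order of time. XTH18, a xyloglucan endotransglucosylase, moved the other way, with 3325 against 671 in flu (2.23) and 150 against 61.5 in Ler (0.85). Of 12 trichome birefringence-like genes, which acetylate wall polymers, 10 were negative in flu and 7 in Ler. Of all named genes, 59.3% were negative in flu, and 45.2% were positive in Ler. TBL26 was 0.89 in flu and 2.22 in Ler, where it had 1941 against 376.

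**Figure D5:**
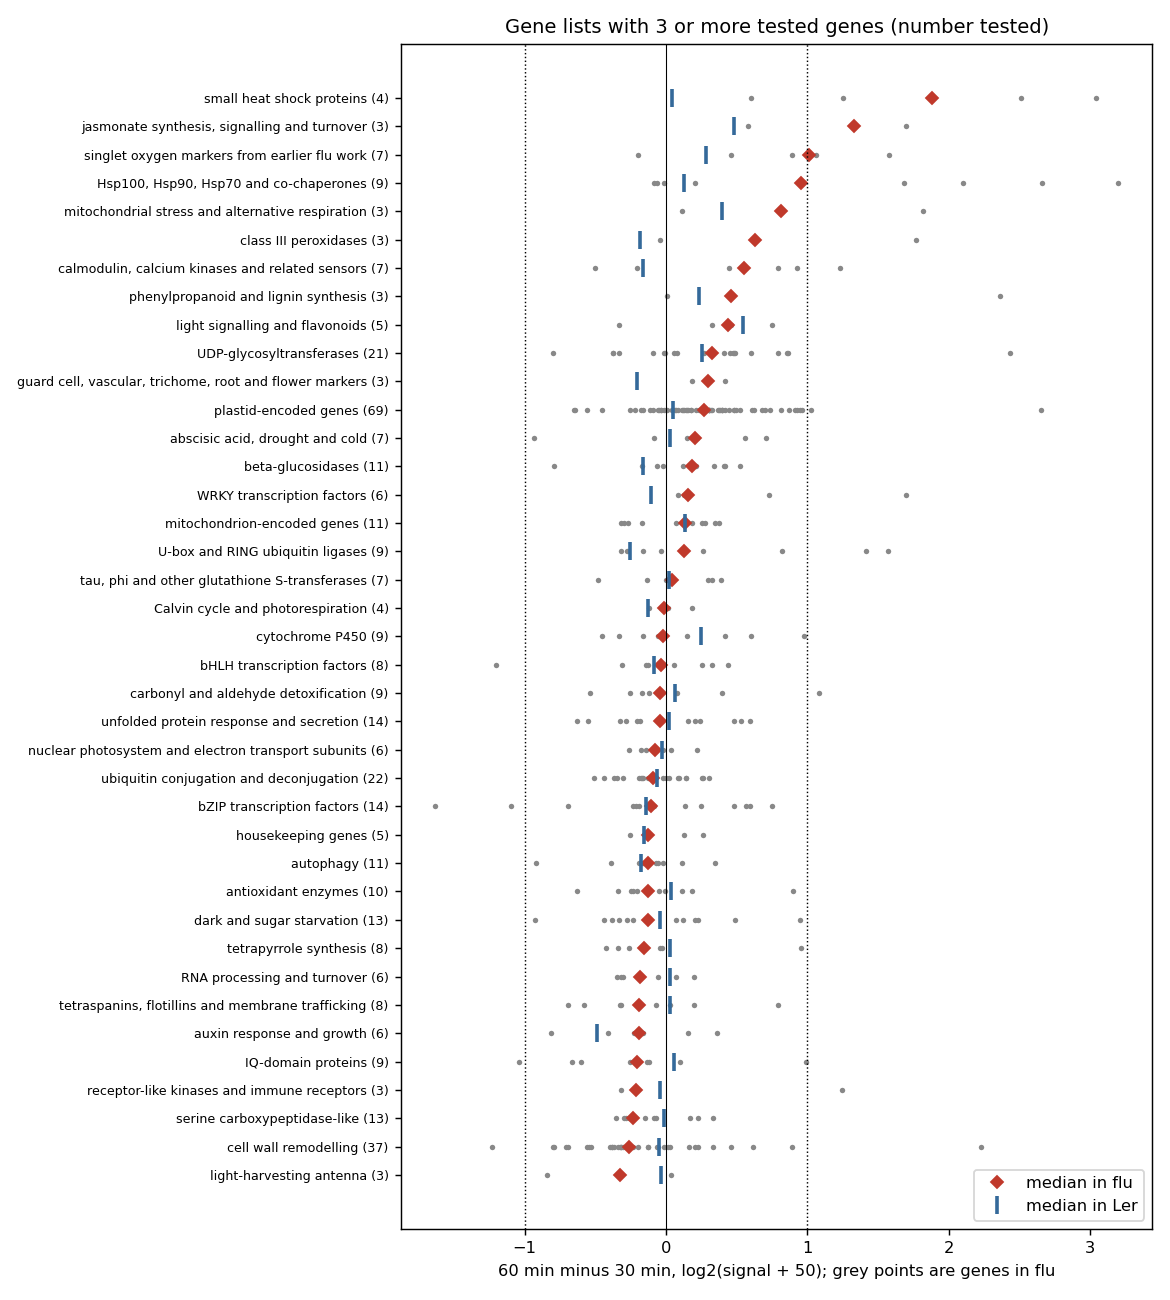
Difference between 60 min and 30 min of light for the genes of the 39 lists with at least 3 tested genes (rows, with the number tested), on the log2(signal + 50) scale (horizontal axis). Grey points are genes in flu, red diamonds their median, and blue bars the median in Ler. Small heat shock proteins (1.88), jasmonate genes (1.33) and singlet oxygen markers (1.01) head the order, and 21 of the 39 lists hold no gene that was 2-fold changed in flu. AT1G53540 and AT5G37670 of the first list and JMT of the second passed the signal limit through their 2 h signals alone. AT5G51440 and AT2G29500 of the first list passed it through flu signals at 60 min and 2 h alone. With the limit applied to the arrays of 30 min and 60 min alone, both lists had fewer than 3 tested genes.

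The 75 lower probe sets were spread over smaller differences, with a median of -1.13. Of them, 5 were also at least 2-fold lower in Ler, which is 6.67% of these, where 0.49% of all probe sets were, and 7.81% of the 64 of Ler, and 1 was 2-fold higher there. Median signals in flu were 653, 244 and 193 in order of time, against 385, 309 and 355 in Ler. In flu 46 of the 75 (61.3%) lay above all 3 Ler arrays at 30 min, and 55 (73.3%) lay below all 3 at 60 min, positions that follow in part from how the 75 were chosen. At 2 h, 32 (42.7%) were at least 2-fold lower in flu than in Ler, where 5.5% of all probe sets were, and 5 were higher. With the signal limit applied to the arrays of 30 min and 60 min alone, these were 29 of 72 (40.3%), against 5.44% of those probe sets. The share of lower probe sets was 0.827% in the dimmest of the 4 groups by mean signal and 0.245% in the brightest, and the flu signal at 60 min was under the signal limit for 31 of them.

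Of 14 bZIP transcription factors 2 were at least 2-fold lower in flu, where 0.597% of all named genes were, with a list median of -0.11. BZIP61, a bZIP factor, had 88.0 at 60 min against 378 at 30 min in flu (-1.63) and 162 against 215 in Ler (-0.32). GT2, a trihelix factor named for binding to light-regulated promoters, had 112 against 371 in flu (-1.38) and 320 against 282 in Ler (0.16). NAC014 had 89.0 against 245 (-1.09) and bZIP42 had 23.9 against 108 (-1.10), both dim, and bZIP42 passed the signal limit through a 2 h signal alone. RR16, a response regulator of cytokinin signalling, was lower in both genotypes, with 490 against 1237 in flu (-1.25) and 658 against 1106 in Ler (-0.71). KELP, a transcriptional coactivator, had 217 against 505 in flu (-1.05) and 434 against 223 in Ler (0.83). IQD24, of a family that binds calmodulin, had 298 against 666 in flu (-1.04) and 1038 against 690 in Ler (0.56).

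Genes without a symbol in the annotation are given by locus number and no role. AT5G63180 had 582 at 60 min against 1597 at 30 min in flu (-1.38) and 1924 against 1325 in Ler (0.52). The next locus in RefSeq order, AT5G63190, had 1263 against 2639 in flu (-1.03) and 1318 against 2119 in Ler (-0.67). AT1G23030 had 535 against 1130 in flu (-1.01) and 1353 against 694 in Ler (0.91). AT3G44450 had 424 against 751 in flu (-0.76) and 1566 against 485 in Ler (1.59), the most negative difference between the genotypes' changes among the brighter genes, -2.35. Others among the 15 most negative were AT3G07010 (-1.24), AT1G49500 (-1.15), AT3G49140 (-1.13), AT1G05840 (-1.13), AT2G38450 (-1.04), AT1G25230 (-1.03) and AT4G37240 (-1.01). AT2G18940 (-0.92 in flu, 0.97 in Ler) and AT2G17360 (-0.71 in flu, 0.79 in Ler) were among the most different between genotypes. AT3G15570, chosen after its values were seen, had the lowest difference of all 13062 probe sets, -2.61, with 15.6 at 60 min against 351 at 30 min in flu and 391.7 against 299 in Ler.

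Among brighter higher genes without a symbol, AT4G27654 had 1177 at 60 min against 191 at 30 min in flu (2.35) and 33.4 against 77.5 in Ler (-0.61), the largest difference between the genotypes' changes at 2.96. Both of those Ler signals lay below the signal limit. AT1G54050 had 1146 against 136 in flu (2.69) and 171 against 109 in Ler (0.48). AT5G25930 had 1575 against 299 in flu (2.22) and 213 against 266 in Ler (-0.26). The others of the 15 were AT2G41730 (2.11, a probe set that shares probes with other transcripts and is uncertain), AT3G19970 (2.10), AT5G10695 (2.09), AT3G51450 (2.08) and AT5G25450 (2.06). Their Ler differences lay between -0.40 and 0.81. The highest difference of all, 4.68, was that of a probe set unnamed here. Neighbouring loci were both higher in 4 cases, AT2G32140 with AT2G32150, AT4G27652 with AT4G27654, AER with AT5G16980, and AT5G25440 with AT5G25450. The number of neighbouring pairs tested was not counted, so these cases have no share to be set against. Of all named genes, 2.32% were at least 2-fold higher in flu.

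Of 14 genes of the unfolded protein response and secretion none was 2-fold changed, where 2.91% of all named genes were (median -0.05), and BZIP60, which activates this response in the endoplasmic reticulum, had 5255 at 60 min against 3466 at 30 min in flu (0.59). Of 11 autophagy genes none was either (median -0.13), and ATG8E, which coats forming autophagosomes, had 601 against 1182 in flu (-0.92). The cold-regulated COR27 was lower but short of 2-fold in both genotypes, with 355 against 723 in flu (-0.93) and 97.8 against 221 in Ler (-0.87). Medians were 0.04 for 7 glutathione S-transferases, -0.02 for 9 cytochrome P450 genes, -0.09 for 22 genes of ubiquitin conjugation and -0.13 for 5 housekeeping genes. CYP71B22 was the P450 gene nearest to 2-fold at 0.98. IQD23, with 549 against 251 in flu (0.99), lay opposite its relative IQD24.

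Reliability of single genes can be judged from genes with several probe sets, which numbered 61. Their differences in flu lay a median of 0.27 apart, against 0.18 in Ler, and up to 1.51. For AT1G60200 the reported probe set stood at -1.10 and the other at 0.25, so its direction is unsettled.

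Of 956 nuclear genes with a symbol, 25 (2.62%) were at least 2-fold higher and 10 (1.05%) lower in flu, against 2.32% higher and 0.597% lower among all named genes. Those not yet described were GID1B, a gibberellin receptor, with 507 at 60 min against 95.9 at 30 min in flu (1.93), and ARD4, a methionine salvage enzyme, with 4550 against 1823 in flu (1.30). In Ler ARD4 was also higher at 60 min, with 5715 against 3419 (0.73), and its flu signal was below that of Ler at each time. On the lower side were NRPB6B, an RNA polymerase subunit, with 635 against 1418 (-1.10), and SIS with 244 against 544 (-1.02).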

How the data were processed

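Leaf RNA was hybridised to Affymetrix ATH1 arrays, and genotype and time were taken from the array titles. The deposited values are linear signal intensity of each probe set, made by the authors with MAS5 per the submitters' processing notes. Its version is not given in the sources used here. Arrays had been scaled to a mean of 500 after trimming 2% at each end. Detection calls were not used here. Because MAS5 subtracts mismatch signals, low values are noisy.

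Signals were rescaled to that trimmed mean and put on log2(signal + 50). Probe sets whose highest signal reached the median of all signals (184.8), rounded up to a whole number, were kept. Differences of 1 array against 1 array have no test, and a difference of at least 2-fold is a description. The procedure was run on simulated data with changes well past 2-fold placed in bright probe sets only. That run cannot judge calls near 2-fold or calls of dim probe sets.

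In the platform annotation 13513 probe sets had 1 gene, 503 several and 8730 none, and 13436 matched a RefSeq gene table (TAIR10.1), used for names only. Named genes were the 15 largest and 15 most negative differences among nuclear genes with a flu signal of 590 or more, the 6 at each end by difference between genotypes, up to 4 per list and psbA. Every gene with a symbol past 2-fold was added after the values were seen. The members and the 55 lists were chosen with earlier results of these data known. Some lists were added after the annotation was seen, and symbols that matched an unrelated gene were removed. Alternatives were other offsets, scalings, filters and a 3-fold limit. A filter on the arrays of 30 min and 60 min alone was added after the values were seen. Python 3.11.15, pandas 2.3.3, numpy 2.4.6 and matplotlib 3.10.9 were used.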

Additional observations from a re-analysis of the deposited data

Results flagged for a closer look

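Only genes named above are listed here. Over all probe sets, 5 were at least 2-fold higher in flu and 2-fold lower in Ler, and 1 the reverse, none of them listed. Of the named genes past 2-fold in flu, 5 differed in direction between the genotypes. Their differences between 60 min and 30 min were at least 0.5 on the log2 scale and opposite in flu and Ler. AT3G44450 (-0.76 in flu, 1.59 in Ler), AT2G18940 (-0.92, 0.97) and AT2G17360 (-0.71, 0.79) also met that limit but were short of 2-fold in flu. With 1 array per genotype and time this difference between genotypes was not tested. AT4G27654 was higher at 60 min in flu and lower in Ler, where both signals, 33.4 and 77.5, were below the signal limit. The change in flu minus the change in Ler was 2.96 for this gene. It was -1.90 for AT5G63180, -1.60 for IQD24, -1.93 for AT1G23030 and -1.88 for KELP, all lower at 60 min in flu and higher in Ler.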

How the results depend on the processing

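Higher and lower counts in flu were 448 and 112 with an offset of 16, 292 and 40 with an offset of 100, 385 and 71 after quantile normalization, 359 and 75 without rescaling, 415 and 55 with median centring, 439 and 114 without a filter, 297 and 40 with a filter at the 75th percentile, and 110 and 8 at 3-fold. In Ler they were 149 and 137 with an offset of 16, 52 and 20 with an offset of 100, 16 and 4 at 3-fold, and the lower count was 36 after quantile normalization, 275 without a filter and 27 with the stricter one. The cause of these moves was not tested, beyond the smaller or larger number of probe sets under another filter or limit. Higher probe sets made up 82.7% of the calls in flu, with 79.4% to 93.2% over the alternatives, and 59.7% in Ler, with 34.1% to 80%. With the limit applied to the arrays of 30 min and 60 min alone, an alternative chosen after seeing the data, 333 were higher and 72 lower in flu, and the lists whose median lay at least 0.5 above that of all genes numbered 4 of 35 instead of 9 of 39, in part because small heat shock proteins and jasmonate genes then had fewer than 3 tested genes. None of the named probe sets reversed direction. Of the 195 named probe sets, many were short of 2-fold from the start and could not fall below it. With an offset of 100, 16 fell below 2-fold, with quantile normalization 5 and with median centring 8. Of the 359 higher probe sets, 292, 351 and 359 stayed at least 2-fold higher under these 3 settings. No paired analysis was possible because each genotype and time had 1 array and the labels give no replicate numbers. For the same reason no array could be left out. Signal near background limits dim genes such as Hop3, CCR2 and SBT3.3.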
